A study of Mus musculus with 15 samples.

Results

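The transcription factors Cux1, Cux2, Rorb, Etv1, Pou3f1, Bcl11b, Fezf2, Tbr1 and Foxp2, which mark or specify the layers of the cerebral cortex, were followed through the excitatory neurons of the mouse prefrontal cortex (PFC). They were chosen by symbol, and all 9 were found, each on 1 row, among the 26145 genes listed. Single-cell RNA sequencing had been carried out on 15 libraries of dissected PFC from male C57BL/6N mice. Tissue of a pair of mice was pooled for each cell suspension. Of the libraries, 3 came from mice at postnatal day 21 (P21, 3 weeks of age), with no treatment given in the labels. The other 12 came from adult mice (P60, 8 to 10 weeks in the labels) that had self-administered saline (6 libraries) or cocaine (6 libraries) by the intravenous route. They were taken at maintenance, after 48 h of withdrawal or after 15 days of withdrawal, with 2 libraries for each treatment and time. Per the study, catheters were implanted at P60 and tissue was taken after 15 days of maintenance or later. P60 thus names the group, and age at collection differed between the times. The age comparison therefore set 3 untreated P21 libraries against 6 P60 saline libraries, so that age, saline self-administration and library preparation cannot be told apart.

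In the developing cortex, these factors act in a network in which a neuron's choice of layer and projection target is settled. Cux1 and Cux2 are known from upper-layer neurons that project within the cortex, and Pou3f1 from neurons of both upper layers and layer 5. Rorb is a nuclear receptor typical of layer 4, Etv1 is an ETS factor of layer 5, and Fezf2 with its effector Bcl11b (also called Ctip2) specifies neurons that project below the cortex. Tbr1 and Foxp2 are typical of layer 6 neurons that project to the thalamus, and Tbr1 is known to repress Fezf2 in those cells.

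The cell annotation deposited by the authors held 35360 cells, of which 20377 were in 26 excitatory clusters named Exc_1 to Exc_26 (14443 at P60 and 5934 at P21). These are the high-resolution clusters and carry other numbers than the broad subtypes of the published classification. The P21 cells had been named by their likeness to the P60 clusters, and 276 P21 cells in these clusters were annotated to a class other than excitatory, against 10 at P60. Libraries held 8375172 to 42892922 unique molecular identifiers (UMIs, each a counted transcript molecule), and the median excitatory cell held 6601 to 10288 UMIs at P21 and 10789 to 15076 at P60. Between 2 libraries at most 27 cell barcodes were shared. One label field names the nucleus accumbens as tissue whereas the titles name the PFC. In the excitatory class at P60, Slc17a7, the vesicular glutamate transporter of cortical excitatory neurons, was at 410.2 CPM (UMIs of the gene per 1e6 UMIs). The striatal markers Drd2 and Adora2a were at 0.49 and 0.17 CPM there. These cells had already been annotated as excitatory, so that the values cannot settle which tissue was taken.

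In the mm9 assembly (NCBIM37) used for the deposited counts, Cux1 lies on chromosome 5 from 136724005 to 137043301 and Cux2 on the same chromosome from 122308396 to 122500111, both on the minus strand. Rorb lies on chromosome 19 (19005095 to 19185686, minus), Etv1 on chromosome 12 (39505967 to 39594802, plus) and Pou3f1 on chromosome 4 (124334896 to 124337899, plus). Bcl11b lies on chromosome 12 (109148613 to 109241812, minus), Fezf2 on chromosome 14 (13174406 to 13178379, minus), Tbr1 on chromosome 2 (61640987 to 61652171, plus) and Foxp2 on chromosome 6 (14851349 to 15391977, plus). At the 3′ ends of Cux2 and Pou3f1, where these libraries are read, the annotation holds a second gene entry of the same symbol and strand within 300 bases. Neither symbol is repeated in the gene list of the deposited counts, and any effect of the second entry on the counts was not tested.

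RefSeq promoter windows (assembly GRCm38.p6) were held for 7 of the 9 factors. The 250 bases before the start site are shown for Tbr1, Fezf2 and Bcl11b, the deep-layer factors with the most calls between the ages, and for the upstream one of both Rorb entries, since Rorb was higher at P60. Capitals mark matches, on either strand, to the GC box (GGGCGG), the CAAT box (CCAAT), the TATA box (TATAAA), a T-box core (GGTGTGA) or the octamer of POU factors (ATGCAAAT).
Tbr1 (chr2:61804203-61804452, plus strand): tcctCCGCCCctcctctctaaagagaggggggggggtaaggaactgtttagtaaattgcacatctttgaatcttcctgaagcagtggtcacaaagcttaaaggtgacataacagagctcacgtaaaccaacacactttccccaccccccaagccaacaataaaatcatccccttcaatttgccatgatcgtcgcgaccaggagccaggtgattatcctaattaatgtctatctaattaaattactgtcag
Fezf2 (chr14:12345866-12346115, minus strand): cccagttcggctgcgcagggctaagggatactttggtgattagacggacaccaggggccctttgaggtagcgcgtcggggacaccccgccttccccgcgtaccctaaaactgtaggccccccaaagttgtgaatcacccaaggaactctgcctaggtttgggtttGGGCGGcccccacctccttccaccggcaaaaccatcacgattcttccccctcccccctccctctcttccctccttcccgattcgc
Bcl11b (chr12:108003415-108003664, minus strand): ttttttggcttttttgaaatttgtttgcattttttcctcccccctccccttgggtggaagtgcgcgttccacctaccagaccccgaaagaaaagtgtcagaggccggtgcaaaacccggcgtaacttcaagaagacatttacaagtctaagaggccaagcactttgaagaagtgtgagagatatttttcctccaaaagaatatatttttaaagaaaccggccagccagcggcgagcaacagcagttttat
Rorb (chr19:19111197-19111446, minus strand): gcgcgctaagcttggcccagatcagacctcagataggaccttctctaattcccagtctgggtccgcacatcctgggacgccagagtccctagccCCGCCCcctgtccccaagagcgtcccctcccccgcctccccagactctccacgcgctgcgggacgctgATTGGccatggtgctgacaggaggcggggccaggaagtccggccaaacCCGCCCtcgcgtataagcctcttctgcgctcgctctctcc
Tbr1 and Fezf2 held 1 GC box each, Rorb held 2 GC boxes and 1 CAAT box, and Bcl11b held none of the 5 motifs. Of 32851 promoter windows of this length, 32.7% held a GC box, 33.8% a CAAT box, 12.4% a TATA box, 3.33% the T-box core and 1.60% the octamer.

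Levels were first described across clusters in the 12 P60 libraries, as CPM per library with at least 10 cells of the cluster. The clusters had been made from these genes and cells, so that the levels are a description and were not tested. The heat map of clusters shows the factors in different blocks.

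**Figure D1:**
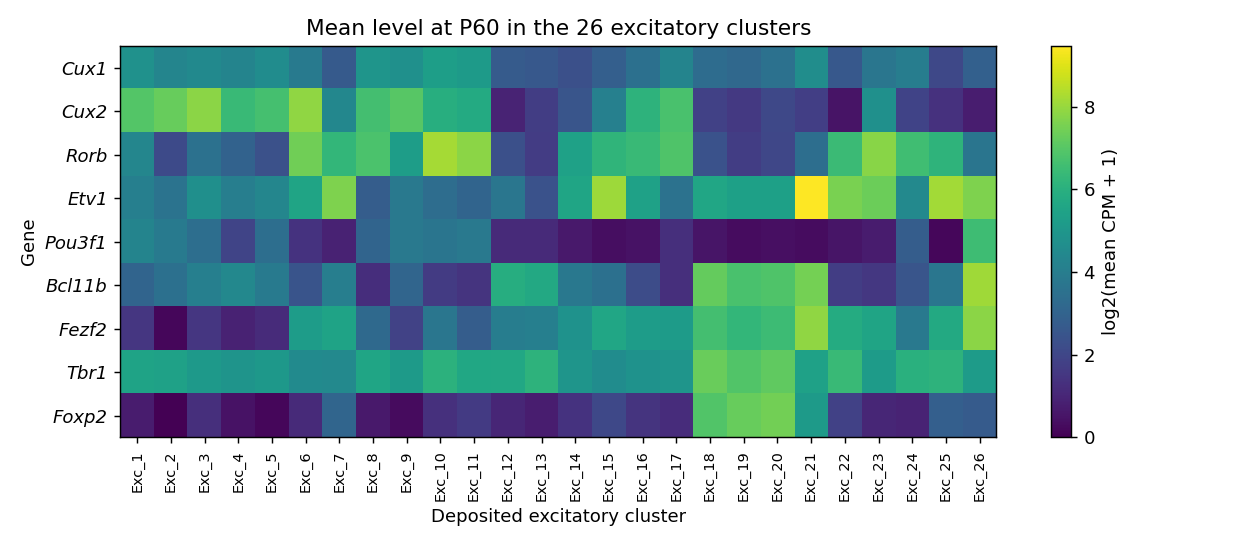
Mean level at P60 of the 9 factors (rows) in the 26 excitatory clusters (columns), as log2(mean CPM + 1) over the libraries with at least 10 cells. Foxp2 stands out in Exc_18 to Exc_20, Bcl11b and Fezf2 in Exc_21 and Exc_26, and Cux2 in Exc_3 and Exc_6, whereas Tbr1 is above 20 CPM in every cluster.

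Of the upper-layer factors, Cux2 was highest in Exc_6 (lowest library 158, median 235, highest 309 CPM, n = 10) and Exc_3 (133, 196 and 320 CPM, n = 12). These clusters did not differ beyond their spread, with Exc_6 the higher in 5 of 10 libraries. Cux2 was below 10% of its highest level in 13 clusters and was at 0.43 ± 0.87 CPM (SD, n = 9) in Exc_22. Cux1 varied less: its mean was 38.8 ± 14.8 CPM (n = 12) in Exc_10 and 3.16 ± 1.47 CPM (n = 12) in Exc_25. With clusters ranked by level, neighbours lay close for every factor: 25 of 25 pairs were within 1 SD for Cux1 and 20 to 24 for the others. Pou3f1 differed from them in its highest cluster, Exc_26, at 91.2 ± 37.9 CPM (n = 8). Exc_1 followed at 18.1 ± 11 CPM (n = 11), and Exc_26 was higher in 8 of 8 libraries that held both. Across the 26 clusters, the rank correlation (Spearman's rho) of Pou3f1 was 0.60 with Cux1 and 0.53 with Cux2. Exc_26 was also the cluster with the highest Bcl11b, and there Etv1 was at 197 ± 80 CPM and Cux2 at 0.69 ± 1.46 CPM (n = 8). In 18 clusters Pou3f1 was below 10% of its highest level.

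Rorb was highest in Exc_10 (lowest library 242, median 292, highest 367 CPM, n = 12), Exc_11 and Exc_23, whose means of 223 and 217 CPM did not differ beyond their spread. It was lowest in Exc_13, at 2.17 ± 3.36 CPM (n = 12). The level of Etv1 in Exc_21 was between 605 and 767 CPM with a median of 710 (n = 12), and the next cluster, Exc_25, was at 286 ± 59.9 CPM (n = 12) and lower in 12 of 12 libraries. Exc_21 was also the cluster with the highest Tshz2, a layer 5 marker, at 2099 CPM, and Exc_22 that with the highest Deptor, another layer 5 marker, at 207.7 CPM.

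Of the subcortical projection factors, Bcl11b was highest in Exc_26 (216 to 340 CPM, median 263, n = 8) and Exc_21 (143 to 236 CPM, median 174, n = 12), with Exc_26 higher in 8 of 8 shared libraries. Fezf2 was highest in the same pair in the other order, at 239 ± 74.2 CPM (n = 12) in Exc_21 and 222 ± 76.2 CPM (n = 8) in Exc_26, a difference within their spread. Tbr1 led in Exc_18 (155 ± 22.0 CPM, n = 7), Exc_20 (142 ± 45.9, n = 8) and Exc_19 (120 ± 17.8, n = 12), and its lowest cluster mean was 21 ± 8.38 CPM in Exc_7 (n = 9). Foxp2 led in the same 3 clusters, at 172 ± 44.0 CPM in Exc_20, 151 ± 20.8 in Exc_19 and 119 ± 19.5 in Exc_18. It fell to 34.7 ± 8.24 CPM in Exc_21 (n = 12) and was below 10% of its highest level in 22 clusters. The layer 6 markers Syt6 and Tle4 were at 75.4 to 112.3 and 144.6 to 205.1 CPM in Exc_18 to Exc_20, and Tle4 was at 202.6 CPM in Exc_21 as well.

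Across the 26 clusters, described on log2(mean CPM + 1), the highest correlation between 2 of the factors was that of Cux1 with Cux2 (Pearson's r = 0.70), followed by Etv1 with Fezf2 (0.69) and Fezf2 with Foxp2 (0.68). Rorb and Bcl11b were the most opposed (r = -0.80), and Cux2 with Fezf2 reached -0.68. The clusters share libraries and depth. Among 11418 genes, the 3 most like each factor were Cd302, Sar1b and Pias1 for Cux1 (r = 0.91, 0.90 and 0.90), Cerkl, Mylk3 and Adrb3 for Cux2 (0.92, 0.92 and 0.91) and Hrh3, Ap3m2 and Fat3 for Rorb (0.94, 0.94 and 0.94). For Etv1 they were Disp2, Arhgap12 and Fam102b (0.87, 0.85 and 0.85), and for Pou3f1 Cdh7, Fam84a and Epha10 (0.84, 0.84 and 0.84). Those of Pou3f1 were each highest in Exc_1 and not in Exc_26, where Pou3f1 was highest. Bcl11b was most like Rxra, Ano4 and Efr3a (0.89, 0.88 and 0.88) and Fezf2 most like Gpr123, Dip2a and Tox (0.90, 0.89 and 0.89). Tbr1 was most like Arhgap25, Epb4.1 and Thsd7b (0.87, 0.86 and 0.85), and Foxp2 most like Gm16496, Padi6 and Syt6 (0.94, 0.92 and 0.91).

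In single cells, detection was compared after thinning each of 13547 P60 excitatory cells to 5000 UMIs (905 shallower cells were left out). Of cells with Fezf2, 27.9% also held Bcl11b, against 9.55% of cells without it. Of cells with Rorb, 2.67% held Bcl11b, against 16.0% of cells without Rorb. In Exc_21, 72.3% of 690 cells held Fezf2, 60.1% held Bcl11b and 42.9% held both. In Exc_26, 67.5% of 237 cells held Fezf2, 73.0% Bcl11b and 49.8% both. Cux2 and Fezf2 met in 12.9% of 441 cells of Exc_6 and in 0.49% of 405 cells of Exc_3. Free RNA can add UMIs: in 947 endothelial cells thinned alike, Fezf2, Bcl11b, Tbr1, Cux2, Foxp2 and Pou3f1 were each found in 0.63% to 2.43%, against 2.76% to 21.4% of the excitatory cells. Of 3566 endothelial cells, the 2619 shallower ones were left out, so that these values are for the deepest cells of the class. Rorb was found in 5.70% and Etv1 in 15.9% of the endothelial cells, against 24.6% and 22.8% of the excitatory cells. Unthinned, Fezf2 was found in 31.7% of excitatory cells (median 12454.5 UMIs) and 1.04% of endothelial cells (median 3871 UMIs). After thinning, Cux1 was found in 17.6% of endothelial and 7.91% of excitatory cells (15.0% and 16.7% unthinned), so that its detection in single excitatory cells was not read further.

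Several of the factors were not restricted to excitatory neurons, as the heat map of the 8 cell classes shows. Etv1 was at 635 ± 190.6 CPM (n = 12) in oligodendrocytes and 97.1 ± 13.9 CPM in excitatory neurons. Rorb was at 358 ± 86.4 CPM in astrocytes (n = 11) and 70.8 ± 21.2 in excitatory neurons. Pou3f1, which is also known from the myelinating lineage, was at 114 ± 28.8 CPM in oligodendrocyte precursors (n = 11) and 5.42 ± 1.68 in excitatory neurons. Bcl11b was at 91.7 ± 26.9 CPM in inhibitory neurons (n = 12) and 29.9 ± 7.0 in excitatory neurons. Cux2, Fezf2, Tbr1 and Foxp2 were highest in excitatory neurons, and Fezf2 reached 24.3 ± 9.62 CPM in astrocytes (143 UMIs in 11 libraries).

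**Figure D2:**
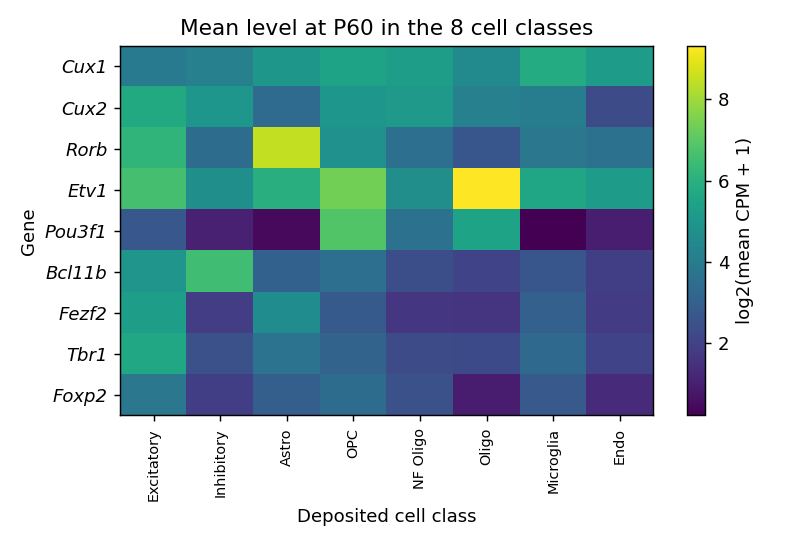
Mean level at P60 of the 9 factors in the 8 deposited cell classes, as log2(mean CPM + 1). The highest class is oligodendrocytes for Etv1, astrocytes for Rorb, oligodendrocyte precursors for Pou3f1, inhibitory neurons for Bcl11b and microglia for Cux1.

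The excitatory neurons of P21 mice were then compared with those of P60 saline mice, on UMIs summed per library. In all excitatory neurons, 5 of the 9 factors were lower at P60 (Bcl11b, Fezf2, Tbr1, Foxp2 and Pou3f1) and Rorb was higher, by edgeR's quasi-likelihood test (Benjamini-Hochberg adjusted p below 0.05 over all genes and more than 1.5-fold). Of 13104 genes tested, 10.1% were called lower and 8.01% higher at P60. With 10 cells drawn from each of the 14 clusters that every library held, cluster makeup was equal but fewer clusters, cells and genes entered the test. Only Fezf2 of the 9 was then still called, and 10.8% of 9794 genes were called in either direction. A sum over all excitatory neurons moves with the number of cells in each cluster as well as with the level per cell, and the values within clusters are given further on.

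**Figure D3:**
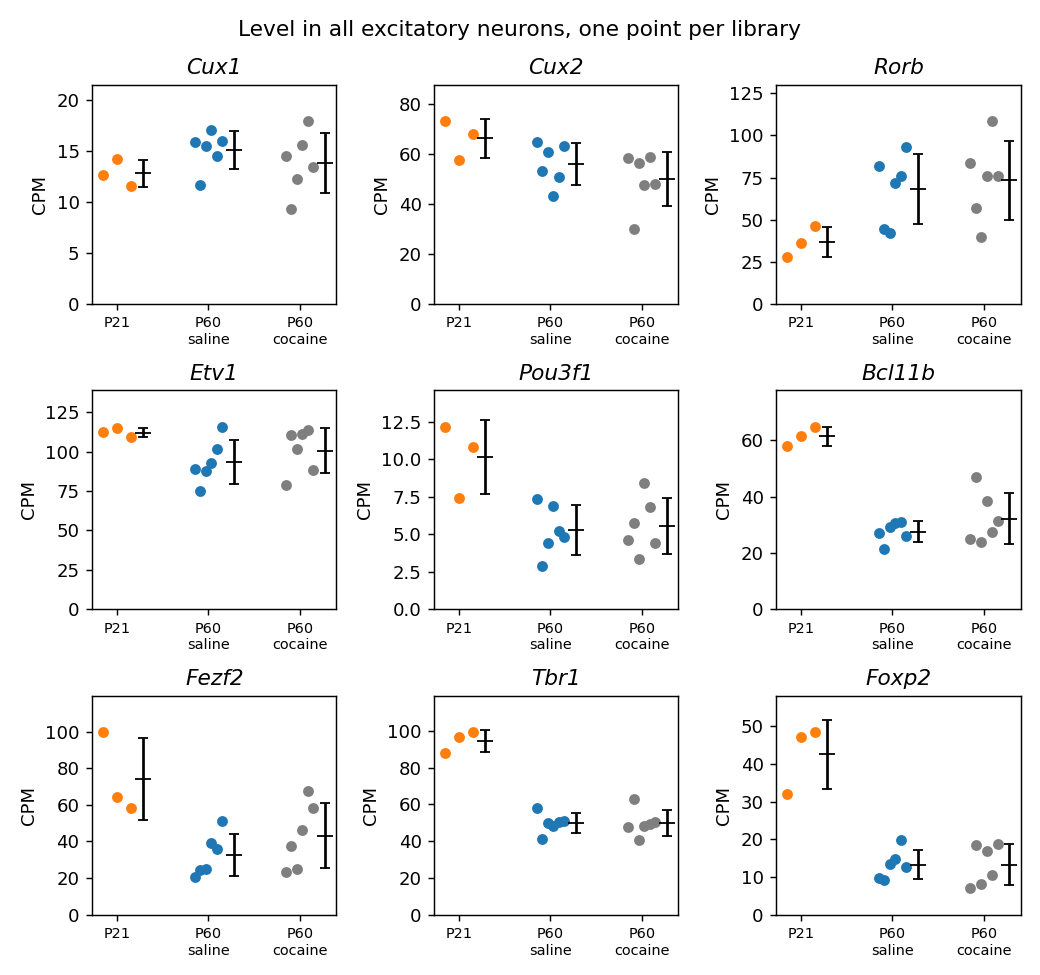
Level (CPM) of each factor in all excitatory neurons, with 1 point per library and the mean ± SD beside the points, for P21 (n = 3), P60 saline (n = 6) and P60 cocaine (n = 6). The P21 libraries lie above every P60 saline library for Pou3f1, Bcl11b, Fezf2, Tbr1 and Foxp2.

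Tbr1 was at 87.8, 96.7 and 99.1 CPM in the 3 P21 libraries and between 41.0 and 58.2 CPM (median 50.1) in the 6 P60 saline libraries. The groups did not overlap, and the log2 fold change was -0.89 ± 0.09 (SE, adjusted p = 2.2e-05). Foxp2 was at 32.1, 47.1 and 48.4 CPM at P21 and between 9.30 and 19.7 CPM (median 13.1) at P60. Its log2 fold change was -1.58 ± 0.19 (adjusted p = 0.00014), furthest below 0 of the 9 in this sum. Exc_18 to Exc_20, where Foxp2 was highest, held 21.8% to 22.7% of the excitatory cluster cells in the 3 P21 libraries and 5.74% to 12.7% in the 6 P60 saline libraries. Bcl11b was at 58.1, 61.5 and 64.8 CPM at P21 and between 21.3 and 31.1 CPM (median 28.2) at P60, with a log2 fold change of -1.11 ± 0.10 (adjusted p = 1.4e-05).

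Fezf2 was at 99.5, 64.4 and 58.1 CPM at P21 and between 20.6 and 51.1 CPM (median 30.6) at P60. P21 library 1 was the highest, and the log2 fold change was -1.11 ± 0.27 (adjusted p = 0.011). Pou3f1 was at 12.2, 7.4 and 10.9 CPM at P21 and between 2.90 and 7.38 CPM (median 5.03) at P60 (log2 fold change -0.93 ± 0.22, adjusted p = 0.0051). The gap between its groups was narrow, with the lowest P21 library just above the highest P60 one.

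Rorb moved the other way. It was at 27.9, 36.3 and 46.0 CPM at P21 and between 42.1 and 92.9 CPM (median 73.9) at P60, and the groups overlapped. Its log2 fold change was 0.94 ± 0.26 (adjusted p = 0.018). Without P21 library 1 the adjusted p was 0.066, without P21 library 2 it was 0.062, and without the 2 P60 saline libraries of 15 days of withdrawal it was 0.051. Cux1 (log2 fold change 0.28 ± 0.12, adjusted p = 0.079), Cux2 (-0.21 ± 0.12, 0.20) and Etv1 (-0.22 ± 0.10, 0.10) did not pass the test.

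Outside the excitatory class, the means of the same factors at both ages were set side by side without a test. Tbr1 and Fezf2 had a lower mean at P60 in 7 of the 7 other classes, Bcl11b and Foxp2 in 6 and Pou3f1 in 5, and Rorb had a higher mean in 5. Of the factors not called in excitatory neurons, Cux2 was lower in 7 as well, and Cux1 and Etv1 in 4 each. Among pairs of a factor and another class with a mean of at least 5 CPM, 36 of 50 were lower at P60, where 53.3% of 70233 such pairs over all genes were. Pou3f1 went the other way in oligodendrocyte precursors, at 9.94 ± 14.1 CPM at P21 (n = 2) and 118 ± 36.1 CPM at P60 (n = 5). The P21 value rested on 4 UMIs. In that class Snap25, a marker of neurons, was at 2121 CPM at P21 and 490 CPM at P60, and Slc17a7 was at 366 and 58.3 CPM. The class, with n = 2 at P21, also enters the counts that follow. Of 50 pairs of a factor and another class with a mean of at least 5 CPM, the libraries of both ages did not overlap in 10 with the lower level at P60 and in 4 with the higher, where 11.3% and 9.23% of 70233 such pairs over all genes did so. In astrocytes, Tbr1 was at 51.8 ± 12.2 CPM at P21 (n = 3) and 11.6 ± 12.6 CPM at P60 (n = 5), and in microglia Bcl11b was at 49.8 ± 20.5 CPM (n = 3) and 7.0 ± 12.7 CPM (n = 6), with overlap. Slc17a7 had a lower mean at P60 in 7 of the 7 classes as well, for example at 237 ± 121 CPM and 65.0 ± 56.5 CPM in microglia. In the excitatory class itself, 13 of 16 markers of other classes had a lower mean at P60, and their summed level was 137 to 214 CPM in the P21 libraries and 49.7 to 123 CPM in the P60 saline libraries (28.6 to 65.8 and 12.0 to 39.1 CPM without Mbp, the most abundant). The part of such RNA in the age differences was not tested.

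With equal cluster makeup the log2 fold changes were smaller for 6 of the 6 called factors: -0.75 ± 0.15 for Fezf2 (adjusted p = 0.0014), -0.58 ± 0.15 for Tbr1 (0.010, just under 1.5-fold), -0.49 ± 0.20 for Bcl11b (0.083), -0.56 ± 0.27 for Foxp2 (0.15), -0.55 ± 0.46 for Pou3f1 (0.44) and 0.41 ± 0.22 for Rorb (0.21). That fit held 140 cells per library. It also left out clusters with fewer than 10 cells in any P21 or P60 saline library, among them Exc_18, Exc_20, Exc_22, Exc_24 and Exc_26. Foxp2 and Tbr1 were among their highest in Exc_18 and Exc_20, and Pou3f1 and Bcl11b were highest in Exc_26. Makeup, the smaller number of cells and the clusters left out cannot be told apart in that fit. In an alternative chosen after seeing the data, each library's CPM was averaged over the same 14 clusters with equal weight, with all cells of those clusters kept. The log2 ratios were then -0.73 for Fezf2, -0.50 for Tbr1, -0.50 for Bcl11b, -0.46 for Foxp2, -0.88 for Pou3f1 and 0.22 for Rorb. Foxp2 was then nearest to 0 of the 5 lower factors and Pou3f1 furthest from it. For Pou3f1 this left out Exc_26, its highest cluster, and rested on means of 8.84 CPM at P21 and 4.79 CPM at P60. In an exact two-sided permutation test over the 3 and 6 libraries, p was 0.024 for Fezf2, Tbr1, Bcl11b and Pou3f1, each adjusted to 0.054 over the 9 factors, 0.048 for Foxp2 (adjusted to 0.086, with overlapping groups) and 0.33 for Rorb. With 3 and 6 libraries, 0.024 is the smallest p that this two-sided test can give.

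**Figure D4:**
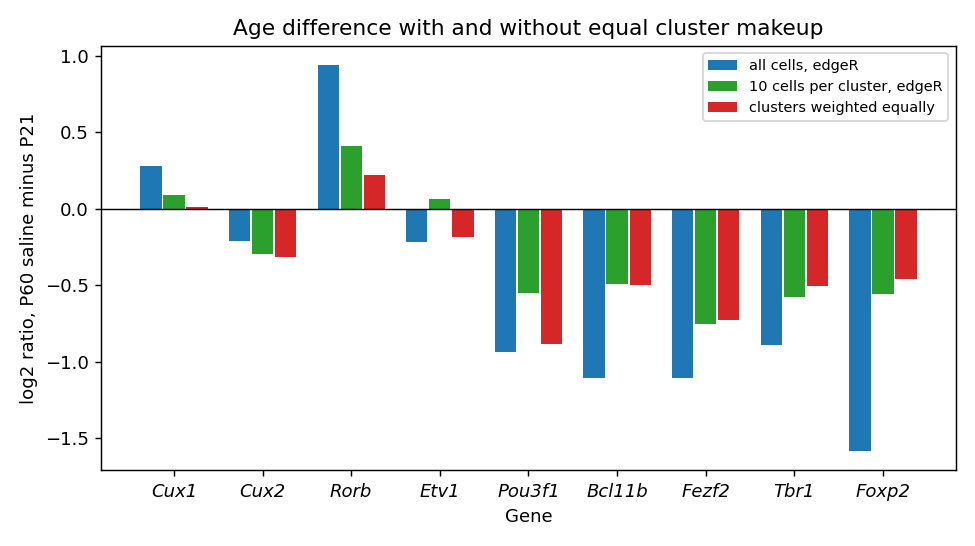
Log2 ratio of P60 saline to P21 for each factor in excitatory neurons: all cells (blue), 10 cells from each of 14 clusters (green) and the 14 clusters weighted equally (red). Bars start at 0, and those of Foxp2 shrink from -1.58 to -0.56 and -0.46.

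Within single clusters, 25 of the 26 could be fitted (P21 library 2 held 9 cells of Exc_11). The cells annotated to a class other than excitatory (276 at P21 and 10 over all P60 libraries) were kept in the cluster sums. No fit without them was run. Of 225 pairs of a factor and a cluster, 110 passed the filter on low counts, 20 of which were called lower at P60 and 5 higher. That filter can be passed through the libraries of 1 age alone, so that the pairs tested were not chosen without regard to the age difference. Over the 25 fits, 6.81% of all gene tests were called lower and 4.61% higher, and the share of genes called ranged from 1.24% in Exc_26 to 22.4% in Exc_24. The median log2 fold change of all genes was -0.01 in all excitatory neurons. The heat map of changes within clusters shows that the calls lay mostly in Exc_14 to Exc_25.

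**Figure D5:**
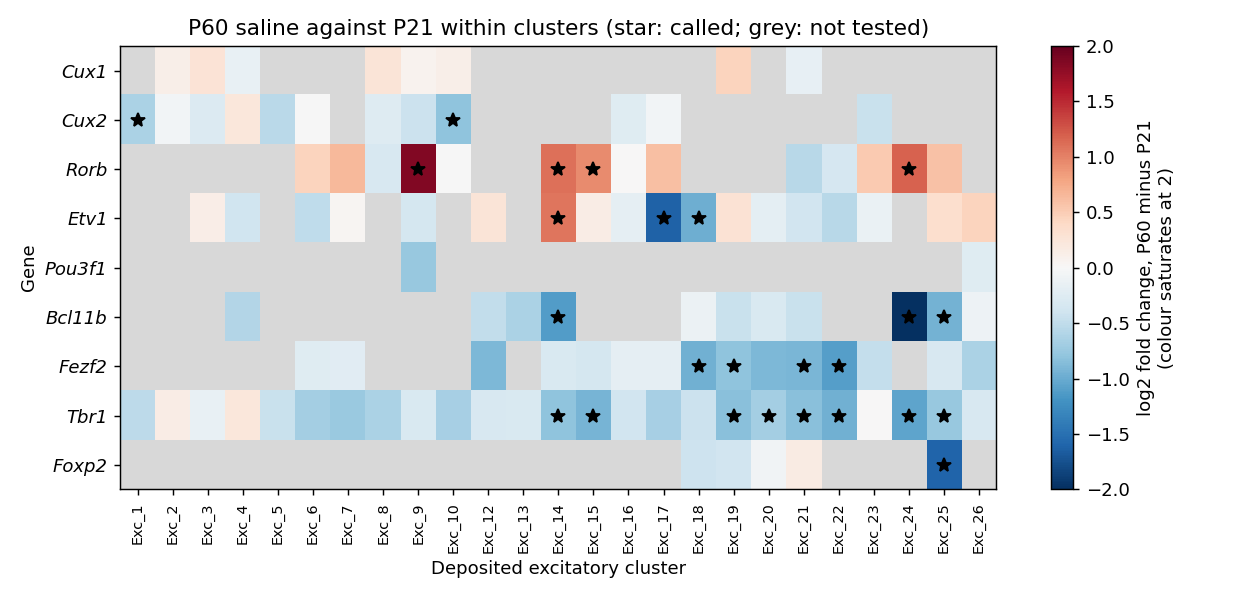
Log2 fold change (P60 minus P21) of each factor within each of 25 clusters. Stars mark calls and grey marks pairs that were not tested. Tbr1 was called lower in 8 clusters, and the largest decrease, that of Bcl11b in Exc_24 (-3.14), lies beyond the colour scale.

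Tbr1 was tested in 25 clusters, called lower in 8 and lower without regard to the test in 22, with a median log2 fold change of -0.63. In Exc_19 it was at 196, 225 and 207 CPM at P21 and between 96.8 and 118 CPM in 6 P60 libraries (log2 fold change -0.84 ± 0.13, edgeR adjusted p = 5.2e-05). In Exc_24 it was at 135, 152 and 152 CPM at P21 and between 51.8 and 81.3 CPM in 5 P60 libraries (-1.06 ± 0.17, adjusted p = 7.5e-05). Neither cluster's groups overlapped. The other 6 calls were in Exc_14, Exc_15, Exc_20, Exc_21, Exc_22 and Exc_25, with log2 fold changes of -0.67 to -0.96. Those of Exc_14, Exc_15, Exc_20 and Exc_21 were lost when single libraries were left out: P21 library 2 or 3 for Exc_14 (adjusted p = 0.073 and 0.058), P21 library 1 or 2 or P60 library 5, 7 or 12 for Exc_15 (0.056 to 0.21), P21 library 2 or 3 or P60 library 7, 11 or 12 for Exc_20 (0.085 to 0.23) and P21 library 3 for Exc_21 (0.086).

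Fezf2 was called lower in 4 of 15 clusters tested and had a negative log2 fold change in 15 of 15. In Exc_21, one of its 2 highest clusters, it was at 516, 371 and 355 CPM at P21 and between 148 and 280 CPM in 6 P60 libraries, without overlap (log2 fold change -0.91 ± 0.17, edgeR adjusted p = 0.00067). In Exc_26, the other, it was -0.63 ± 0.23 and did not pass (adjusted p = 0.19). The other calls were in Exc_18 (-0.96), Exc_19 (-0.81) and Exc_22 (-1.10). Without P21 library 1, the highest in Exc_18 and Exc_19, neither of those calls passed (adjusted p = 0.074 and 0.056), and the call in Exc_18 was also lost without P60 library 7 (0.23) or 11 (0.25).

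Bcl11b was called lower in 3 of 11 clusters tested. In Exc_24 it was at 34.0, 39.4 and 27.8 CPM at P21 (71 UMIs) and between 1.48 and 5.03 CPM in 5 P60 libraries (11 UMIs), a log2 fold change of -3.14 ± 0.40 (edgeR adjusted p = 3.0e-06). There Bcl11b could pass the filter on low counts through its P21 libraries alone, and the call was kept without that filter. The other calls were in Exc_14 (-1.11, adjusted p = 0.13 without P21 library 3) and Exc_25 (-0.95, adjusted p = 0.12 without P21 library 1). In its 2 highest clusters it was not called: the log2 fold change was -0.10 ± 0.19 in Exc_26 (adjusted p = 0.87), and -0.44 ± 0.13 in Exc_21 (adjusted p = 0.022, under 1.5-fold).

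Foxp2 was called lower in 1 of 5 clusters tested, Exc_25, where it was low at both ages: 13.9, 19.4 and 15.5 CPM at P21 and between 1.70 and 6.30 CPM in 6 P60 libraries (log2 fold change -1.60 ± 0.30, edgeR adjusted p = 0.00030). There Foxp2 could pass the filter on low counts through its P21 libraries alone, and the call was kept without that filter. It was not called in Exc_18, Exc_19 or Exc_20, the 3 clusters where it was highest, although the adjusted p was 0.041 in Exc_19 (-0.39 ± 0.14, under 1.5-fold). Cux2 was called lower in Exc_1 (-0.64 ± 0.21, adjusted p = 0.039) and Exc_10 (-0.80 ± 0.24, adjusted p = 0.022) of 12 clusters tested. The first was lost without P21 library 1 or 3 or P60 library 2, 5 or 7 (adjusted p = 0.052 to 0.33) and the second without P21 library 3 (0.15). Cux1 was called in 0 of 8 clusters, and Pou3f1 in 0 of the 2 that passed the filter.

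Rorb was called higher in 4 of 14 clusters tested. In Exc_9, a cluster with high Cux2, it was at 8.61, 14.5 and 6.75 CPM at P21 and between 18.1 and 46.8 CPM in 6 P60 libraries, without overlap (log2 fold change 1.85 ± 0.31, edgeR adjusted p = 0.00016). The other calls were in Exc_14 (1.10), Exc_15 (0.94) and Exc_24 (1.18), and that in Exc_15 was lost without P21 library 1 (adjusted p = 0.057), P21 library 2 (0.081) or P60 library 12 (0.061). Without the P60 saline libraries of 15 days of withdrawal, those in Exc_14 (0.64, adjusted p = 0.18) and Exc_24 (0.84, adjusted p = 0.084) were lost. In Exc_10, its highest cluster, it was at 288 ± 59.9 CPM at P21 and 273 ± 35.0 CPM in 6 P60 libraries, and was not called (adjusted p = 1.00). Etv1 was called higher in Exc_14 (1.07 ± 0.30) and lower in Exc_17 (-1.61 ± 0.52) and Exc_18 (-0.98 ± 0.25) of 18 clusters tested. The calls in Exc_14 and Exc_17 were lost without P21 library 1 (adjusted p = 0.057 and 0.21) or 2 (0.077 and 0.12), and that in Exc_18 without P21 library 3 (0.095) or P60 library 7 (0.066) or 11 (0.22). The age change of Etv1 in Exc_14 was 1.91 above that in Exc_17 and 1.59 above that in Exc_18, as means of log2(CPM + 10) over libraries that held both clusters. The exact permutation test run on these differences could not reach an adjusted p below 0.05, no other test was run, and the pairs had been chosen for their opposite calls.

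Although levels changed, the order of clusters was alike at both ages as a description: Spearman's rho of the 26 cluster means at P60 and P21 was between 0.73 for Foxp2 and 0.99 for Fezf2. The P21 cells had been named by likeness to P60 clusters, which bears on that. The highest cluster was the same at both ages for Cux1, Rorb, Etv1, Pou3f1, Bcl11b and Fezf2.

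Of 24 other regulators of projection neuron identity, 6 were called lower at P60 in all excitatory neurons (Bcl11a, Nfia, Otx1, Pou3f3, Tle4 and Zfpm2) and 1 higher (Rora, a relative of Rorb), where 10.1% of all genes were called lower and 8.01% higher. Within clusters, 26 of 395 tests were called lower and 15 higher, near the shares over all genes (6.81% and 4.61%). Id2, an inhibitor of bHLH factors, made up 13 of the 15, as it was higher at P60 in 13 of 25 clusters, for example at 366 ± 35.0 CPM at P21 and 733 ± 132.1 CPM at P60 in Exc_13. Bcl11a, a paralogue of Bcl11b, was called lower in 7 of 25 clusters.

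Cocaine self-administration was compared with saline within each time point in all excitatory neurons. None of the 9 factors was called at any time or over all times by edgeR. At maintenance and at 48 h of withdrawal, 0 of 13172 genes were called (871 and 647 at an unadjusted p below 0.05, and 2 and 5 called by DESeq2), and at 15 days of withdrawal 94 genes (0.714%) were. The latter were 0 without P60 library 9 (cocaine) or 11 (saline), 16 without library 10 (cocaine), 387 without library 12 (saline), and 45 and 54 without the saline libraries 2 and 3 of maintenance. Of the factors, the log2 fold change furthest from 0 was 0.58 ± 0.31 for Bcl11b at maintenance (edgeR adjusted p = 0.79), followed by 0.58 ± 0.32 for Fezf2 at 15 days (adjusted p = 1.00). Without the filter on low counts, Fezf2 at 15 days was called (0.59, adjusted p = 0.00093).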

How the data were processed

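Cells of dissected mouse PFC were captured on the 10x Chromium platform. Per the methods and the submitters' processing notes, the authors counted UMIs with Cell Ranger against mm9 and clustered cells with Seurat 2.1.0 (the notes give Cell Ranger as 13.1, which differs from the study's methods). The deposited matrices hold raw UMI counts per gene and cell, and a deposited table gives each cell's library, class and cluster. A deposited matrix of all cells was not used. Each retained cell's total count equalled the deposited one (0 differed), so cell filters and doublet removal are the authors'. The members and gene lists were chosen with earlier results of these data known. The genes named are the 9 members, 24 other regulators where called, and the 3 genes most like each member among those at 5 CPM or more in at least 1 cluster, besides markers of cell classes, layers and striatal neurons named for their levels (Mbp was singled out after its values were seen).

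Before summing, the counts of 13 genes of the mitochondrial genome and of 143 genes for ribosomal proteins were removed, as in the study. UMIs were summed per library and class or cluster (at least 10 cells in a library and 3 libraries in a group), and tested with edgeR 4.0.16 (R 4.3.3; TMM, filterByExpr, robust quasi-likelihood). Standard errors were taken from the fold change and the F statistic. A gene was called at an adjusted p below 0.05 and more than 1.5-fold. The fits were tested on simulated data. Alternatives were DESeq2 1.42.0 and its size factors, no filter, at least 20 cells, equal cluster makeup, all 12 P60 libraries, P21 libraries 2 and 3 summed, no libraries of 15 days, and each library left out. Permutation tests used scipy 1.17.1. The labels state no mouse for a library, so that p-values measure the spread between libraries, and the study's methods give fewer P21 mice than a separate pair for each library would need, so that some may share animals. The result of 1 listed regulator is not reported here.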

Additional observations from a re-analysis of the deposited data

How the results depend on the processing

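Equal cluster makeup, in a fit with 140 cells per library and 9794 in place of 13104 genes tested, moved the genes called between P21 and P60 saline in all excitatory neurons from 2376 to 1062 and the factors called from 6 to 1, and turned the log2 fold change of Etv1 to 0.065 (not called in either). Makeup, the number of cells and the clusters left out cannot be told apart in that fit. Without the libraries of 15 days of withdrawal, 20 clusters could be fitted in place of 25, and calls of factors within clusters went from 25 to 15. Of the 25 calls within clusters, 9 were kept under every alternative run, 16 were lost under at least 1 (14 of them with a single library left out), and 0 reversed. The 9 were Tbr1 in Exc_19, Exc_22, Exc_24 and Exc_25, Fezf2 in Exc_21 and Exc_22, Bcl11b in Exc_24, Foxp2 in Exc_25 and Rorb in Exc_9. Of these, Bcl11b in Exc_24 and Foxp2 in Exc_25 could pass the main filter on low counts through the P21 libraries alone. Between cocaine and saline, DESeq2 called 2 genes at maintenance, 5 at 48 h, 163 at 15 days and 8 over all times, and edgeR without the filter on low counts called 40, 60, 384 and 61, with 1 of the factors at 15 days. With 1 library left out the calls were 0 to 1 at maintenance, 0 to 1 at 48 h, 0 to 387 at 15 days and 0 to 75 over all times, where the lone library left in an arm was assumed to vary like the others. Of 540 values of the factors between cocaine and saline, 15 changed sign and lay at least 1 SE from the main value, and 1 became a call. Changes of sign within 1 SE were not counted. The cause of these changes was not tested.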
